A study of Mus musculus with 6 samples.

Results

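The family of miR-130 and miR-301 was followed in livers of mice on a normal or a high-fat diet by small RNA sequencing. Its members here were chosen by name as mmu-miR-130a-3p, mmu-miR-130b-3p, mmu-miR-130b-5p, mmu-miR-301a-3p and mmu-miR-301b-3p. Of these 5, 4 were measured among the 1546 mature miRNAs listed, and mmu-miR-301b-3p was not analysed here. The samples were 6 libraries of liver from male C57BL/6 mice, 3 on the normal diet (called NC) and 3 with MAFLD (metabolic dysfunction-associated fatty liver disease) induced by a high-fat diet. Feeding began at 8 weeks of age and lasted 16 weeks, and no transgene, deletion or drug is given for either group. The study kept 6 mice on each diet, and the labels number the libraries without saying whether each came from a separate mouse or from a pool. The p-values therefore measure the spread between libraries, which may be technical. The comparison asks which miRNAs differ between the fatty and the normal liver.

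A miRNA is cut from an RNA hairpin, whose 5′ side gives a 5p and whose 3′ side gives a 3p strand, and 1 of the strands is usually kept in the Argonaute protein. Bases 2 to 8 of that strand, the seed, pair with matching sites in messenger RNAs and lower the output of those genes. This family is known to repress Pparg, the nuclear receptor that drives fat storage, and also Abca1, the pump that exports cholesterol. MiR-130a is also known from blood vessels, and miR-301a from inflammatory signalling.

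The mature sequences are shown because they set which members can share targets. They come from RefSeq on GRCm38.p6, are written 5′ to 3′, and have the seed in capitals.
mmu-miR-130a-3p: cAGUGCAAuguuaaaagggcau
mmu-miR-130b-3p: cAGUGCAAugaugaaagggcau
mmu-miR-301a-3p: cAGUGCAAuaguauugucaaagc
mmu-miR-130b-5p: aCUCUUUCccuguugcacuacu

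The measured 3p members carried 1 seed, and miR-130b-5p carried another. Counted from 1 at the 5′ end of miR-130a-3p, miR-130b-3p differed from it at 2 of 22 positions, U11A and A13G, and their first 10 bases were identical. MiR-301a-3p, of 23 nt, shared the first 9 bases with miR-130a-3p. The 3p seed was found in 7 of the 1738 mature mouse sequences searched, and 5 of these 7 miRNAs were among those listed. The sequences searched did not include miR-301b-3p. MiR-130b-5p held the complement of the 3p seed at bases 13 to 19, in capitals here.
mmu-miR-130b-5p: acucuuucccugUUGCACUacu

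The members come from separate places in the genome (GENCODE M21 on GRCm38). Mir130a (ENSMUSG00000065484.1) is a hairpin of 64 nt on the minus strand at chr2:84741115-84741178, outside any other annotated gene. Mir130b (ENSMUSG00000065572.1, 82 nt, minus strand) lies at chr16:17124061-17124142. Mir301b (ENSMUSG00000076288.1, minus strand) lies 257 bases away at chr16:17124400-17124496. Both are in an intron of the protein-coding gene 2610318N02Rik on the same strand. Mir301 (ENSMUSG00000065589.1, 86 nt), which gives miR-301a, lies on the plus strand at chr11:87113004-87113089 in an intron of Ska2, a gene of the mitotic spindle.

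The complement of the seed, UUGCACU, was searched on the sense strand of the longest annotated 3′ untranslated region (3′ UTR) of each of 20470 coding genes, and 9.89% held it. The 3′ UTR of Pparg, of 204 nt, held 1 match, at chr6:115490237-115490243. That of Abca1 held 2, and that of Tgfbr2, a receptor for TGF-beta, held 1. A site in Pparg and a site in Abca1 are shown with 8 bases on either side and the match in capitals.
Pparg (chr6:115490237-115490243, plus strand): ucuauugaUUGCACUauuauuuu
Abca1 (chr4:53033884-53033890, minus strand): gucuuccuUUGCACUgugucaag

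Both matches in Abca1 were followed by G, which makes UUGCACUG, and 3.52% of the 3′ UTRs held these 8 letters. Their last 7 letters, UGCACUG, match the seed of miR-148a-3p. Messenger RNA was not measured in these samples, so the matches describe sequence and not repression.

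The libraries held 1336935 to 2549598 reads on miRNAs in NC and 1534569 to 4685712 in MAFLD. The deposited unit is CPM, reads per 1000000 reads on all listed miRNAs, and the reads behind each value were recovered from it. Intervals below are 95% Wilson intervals of the reads and cover counting error only, since PCR copies cannot be told from separate molecules. MiR-148a-3p alone took 48.5% to 71.4% of the NC reads and 46.8% to 56.7% of the MAFLD reads, so the CPM of other miRNAs depends on its share. NC replicates 1 and 2 stood apart from the other 4 libraries. Their shares of miR-148a-3p were the highest, at 71.4% and 63.3%, and their summed neuronal miRNAs (miR-9-5p, miR-124-3p and miR-128-3p) were at 459 and 735 CPM, against 44.0 to 63.2 CPM elsewhere.

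Among the 4 measured members, miR-130a-3p had by far the most reads. It was read 175, 173 and 269 times in the NC libraries and 449, 775 and 284 times in the MAFLD libraries. It ranked between 73 and 99 among the 1546 miRNAs in each library. The other measured members each had at most 7 reads in any library. Over the 6 libraries miR-130a-3p averaged 149.8 CPM, miR-130b-5p 1.67 CPM, miR-130b-3p 1.18 CPM and miR-301a-3p 0.539 CPM. MiR-130a-3p was above the other measured members in each library. MiR-130b-5p was above miR-301a-3p in each library too, but with 2 to 5 reads against 1 or 2, and the range of miR-130b-3p overlapped with both, so the order of these 3 was not resolved at this depth. All are 22 or 23 nt long, but small RNA libraries join adapters to some ends better than to others, so a difference in reads between miRNAs is not exactly one in molecules.

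**Figure D1:**
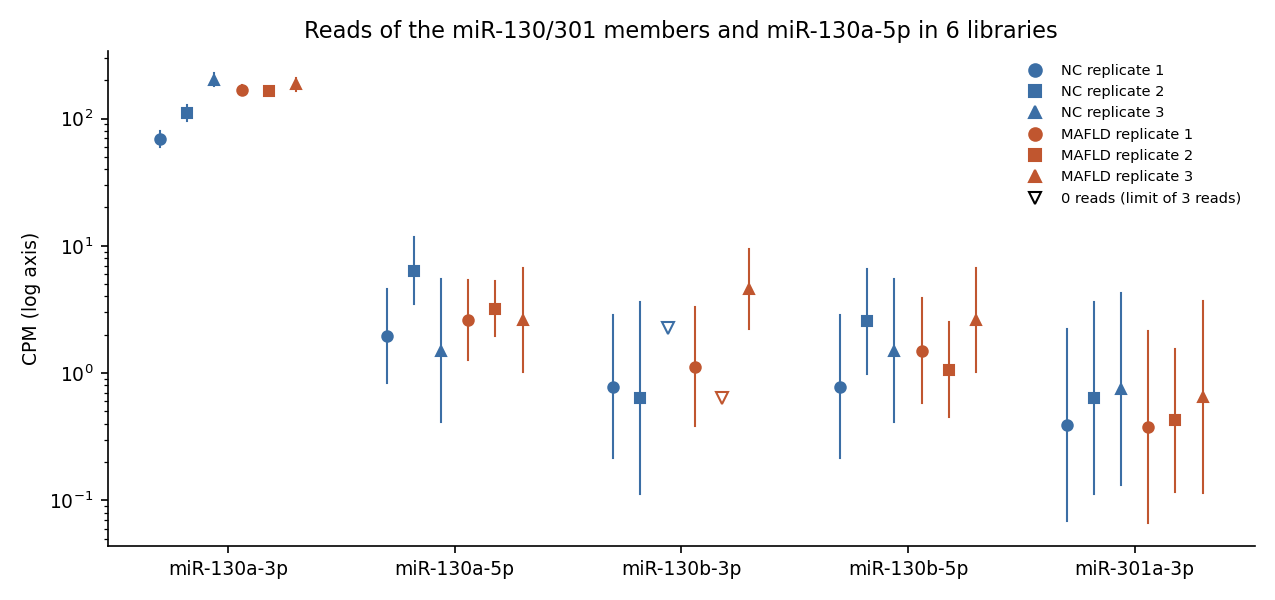
CPM on a log axis of the 4 measured members and of miR-130a-5p, the other strand of the Mir130a hairpin, in each of the 6 libraries. Symbols are libraries, bars are 95% Wilson intervals, and open triangles mark 0 reads at the level of 3 reads. MiR-130a-3p sits between 68.6 and 201 CPM in every library, and the others stay at 6.37 CPM or less.

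In NC replicate 1 miR-130a-3p was at 68.6 CPM (interval 59.2 to 79.6), in replicate 2 at 110 CPM (interval 94.99 to 128) and in replicate 3 at 201 CPM (interval 179 to 227). The MAFLD replicates had 168 CPM (interval 154 to 185), 165 CPM (interval 154 to 177) and 185 CPM (interval 165 to 208). The MAFLD libraries lay close together and their intervals overlapped, whereas no intervals of the NC libraries overlapped. The highest NC library was 2.93 times the lowest, and the highest MAFLD library was 1.12 times the lowest. NC replicate 3 was above all MAFLD libraries, and NC replicates 1 and 2 were below all of them.

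The NC mean of miR-130a-3p was 127 ± 67.8 CPM (SD, n = 3) and the MAFLD mean 173 ± 10.6 CPM (SD, n = 3), which is 1.37 times as high. The log2 fold change of MAFLD against NC on log2(CPM + 1) was 0.58 (standard error 0.43, 95% interval −0.32 to 1.49, adjusted p = 0.451 in limma, by Benjamini-Hochberg over 501 miRNAs). A two-sided exact permutation test gave p = 0.4, where 3 libraries against 3 cannot go below 0.1. The difference was within the spread of the libraries. The 501 miRNAs tested had a median log2 fold change of 0.43, so a value above 0 was common among the miRNAs at large.

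Of the 4 measured members, 3 passed the filter of a mean of at least 1 CPM. MiR-130b-3p passed it only through MAFLD, with a mean of 0.474 CPM in NC and 1.90 CPM in MAFLD libraries. Of the 3 members, 0 had an adjusted p under 0.05 (limma), beside 0.2% of all miRNAs tested. At an unadjusted p under 0.05 there were 0 of 3, beside 18.0% of all tested. On the recovered reads edgeR had 0 of 3 at an adjusted p under 0.05, beside 0.2% of all tested, and 0 of 3 at an unadjusted one, beside 17.4%. DESeq2 gave no adjusted p for miR-130b-3p and had 0 of the other 2, beside 6.09% of all with an adjusted p, and 0 of 3 at an unadjusted one, beside 16.6%. The groups did not overlap in 0 of 3, beside 19.4% of all tested.

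The value of miR-130a-3p depended on which NC libraries were used. Without NC replicate 3 the log2 fold change was 0.98 (standard error 0.31, 95% interval 0.31 to 1.65) with an adjusted p of 0.0387 from limma. In that fit 22.8% of all 501 miRNAs were called and their median log2 fold change was 0.67, so the call was 1 of many. Without NC replicate 1 the log2 fold change of miR-130a-3p was 0.21 (adjusted p = 0.844, limma), and without NC replicate 2 it was 0.55. Without NC replicates 1 and 2 together, the libraries that stood apart, the direction turned to −0.22 (95% interval −1.10 to 0.67, adjusted p = 0.999 from limma). That fit has 1 NC library, which is assumed to vary like the MAFLD libraries.

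The value also depended on how the libraries were scaled. With miR-148a-3p taken out of the totals, miR-130a-3p was at 239.8, 300.7 and 391 CPM in NC and at 316, 382 and 383 CPM in MAFLD libraries. With median-ratio scaling, which sets each library to its median ratio over 409 miRNAs, it was at 109, 142 and 160.5 CPM in NC and at 131, 172 and 142 CPM in MAFLD libraries. The NC libraries were closer together under both scalings, with the highest at 1.63 and 1.48 times the lowest. The MAFLD libraries were further apart than as deposited, with the highest at 1.21 and 1.31 times the lowest. The log2 fold change was 0.24 (95% interval −0.33 to 0.81) without miR-148a-3p and 0.12 (−0.40 to 0.64) with median-ratio scaling. When NC replicate 3 was dropped and the rest scaled by median ratio, it was 0.28 (adjusted p = 0.540, limma).

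**Figure D2:**
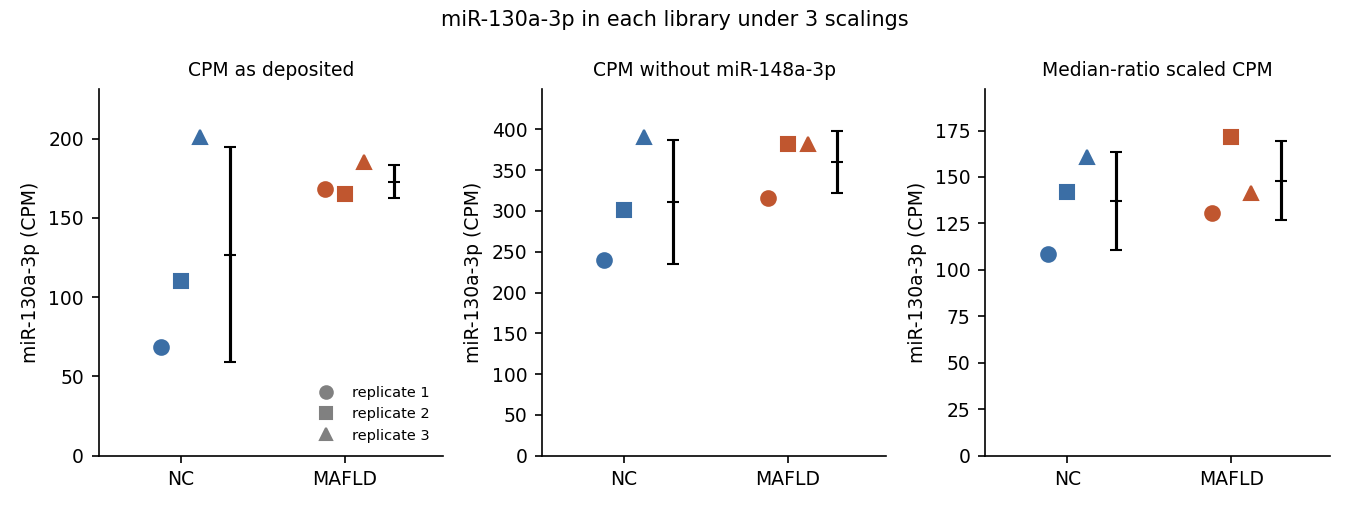
CPM of miR-130a-3p in each NC and MAFLD library as deposited, with miR-148a-3p taken out of the totals, and with median-ratio scaling, on axes from 0. Symbols are replicates and black bars are the mean ± SD (n = 3). The NC libraries run from 68.6 to 201 CPM as deposited and from 109 to 160.5 CPM with median-ratio scaling, and the groups overlap in all 3 panels.

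The median-ratio factors ran in nearly the same order as miR-130a-3p itself. NC replicates 1 to 3 had factors of 0.633, 0.776 and 1.25, and MAFLD replicates 1 to 3 had 1.29, 0.964 and 1.31. A low factor means that most miRNAs were low in that library. The lowest factors belonged to NC replicates 1 and 2, the libraries with the least miR-130a-3p in CPM as deposited. The part of the library scale in the difference was not tested beyond these values.

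**Figure D3:**
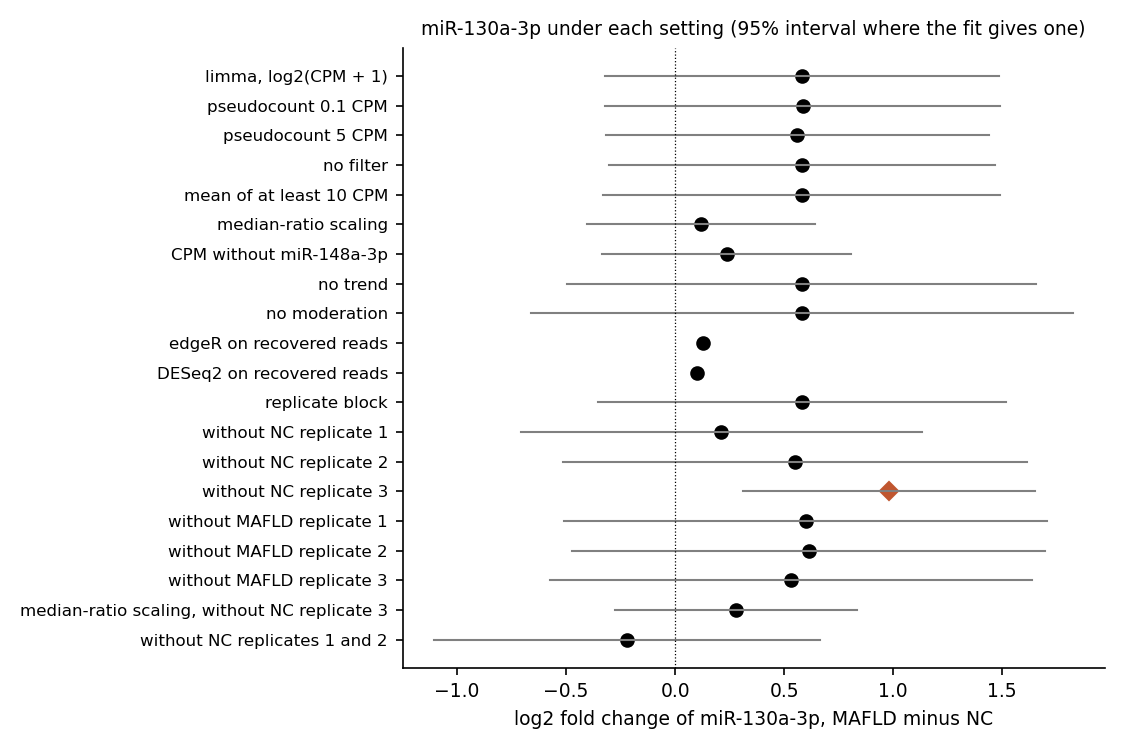
Log2 fold change of miR-130a-3p (MAFLD minus NC) under the limma fit on log2(CPM + 1) and 19 alternatives. Points are estimates, grey lines are 95% intervals where the fit gives one, and the orange diamond marks an adjusted p under 0.05. Estimates run from −0.22 to 0.98, the fit without NC replicates 1 and 2 is alone below 0, and the fit without NC replicate 3 is alone with an adjusted p under 0.05.

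MiR-130b-3p, the closest relative of miR-130a-3p in sequence, was read 2, 1 and 0 times in the NC libraries and 3, 0 and 7 times in the MAFLD libraries. This is 0.784, 0.637 and 0 CPM in NC and 1.13, 0 and 4.56 CPM in MAFLD libraries. With 3 reads taken as the limit that a count of 0 allows, in place of a Wilson bound, the 0 of 1336935 reads in NC replicate 3 allows up to 2.24 CPM. The 0 of 4685712 in MAFLD replicate 2 allows up to 0.640 CPM. MAFLD replicate 3 was alone above 3 reads, and the groups overlapped. The fitted log2 fold change was 0.67 (standard error 0.70, 95% interval −0.82 to 2.16, adjusted p = 0.612 from limma), and it was 0.028 without MAFLD replicate 3. No difference was detectable at this depth, and the sign carries no weight because miR-130b-3p passed the filter only through MAFLD. The bases that part miR-130b-3p from miR-130a-3p, at positions 11 and 13, fall within any stretch of 14 nt of either. How reads with a mismatched base were assigned is not given in the sources used here.

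MiR-130b-5p, the other strand of the same hairpin, was read 2, 4 and 2 times in NC and 4, 5 and 4 times in MAFLD libraries. The levels were 0.784, 2.55 and 1.50 CPM in NC and 1.50, 1.07 and 2.61 CPM in MAFLD libraries. The means were 1.61 ± 0.888 CPM (SD, n = 3) and 1.72 ± 0.794 CPM (SD, n = 3). The log2 fold change was 0.079 (95% interval −1.16 to 1.32, adjusted p = 0.956 from limma), and it was below 0 with the other scalings.

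MiR-301a-3p was read once in 5 of the 6 libraries and 2 times in MAFLD replicate 2. Its levels ran from 0.392 to 0.748 CPM in NC and from 0.375 to 0.652 CPM in MAFLD libraries. With a mean of 0.539 CPM it did not pass the filter and was not tested, and no fold is given because both groups lie under the level of 3 reads per library.

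The Mir130a hairpin was read almost wholly from its 3p strand, and the Mir130b hairpin, with 2 to 11 reads a library, from both strands. The 3p strand made up 97.2%, 94.5% and 99.3% of the reads of both miR-130a strands in NC libraries and 98.5%, 98.1% and 98.6% in MAFLD libraries. At the Mir130b hairpin the 3p strand made up 50.0%, 20.0% and 0% of 4, 5 and 2 reads in NC libraries and 42.9%, 0% and 63.6% of 7, 5 and 11 reads in MAFLD libraries. The 3p share was higher at Mir130a than at Mir130b in each library. Over all libraries there were 2125 reads of the 3p and 43 of the 5p strand of miR-130a, and 13 of the 3p and 21 of the 5p strand of miR-130b. This contrast was chosen after the values were seen, and it is given as a description with no test.

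**Figure D4:**
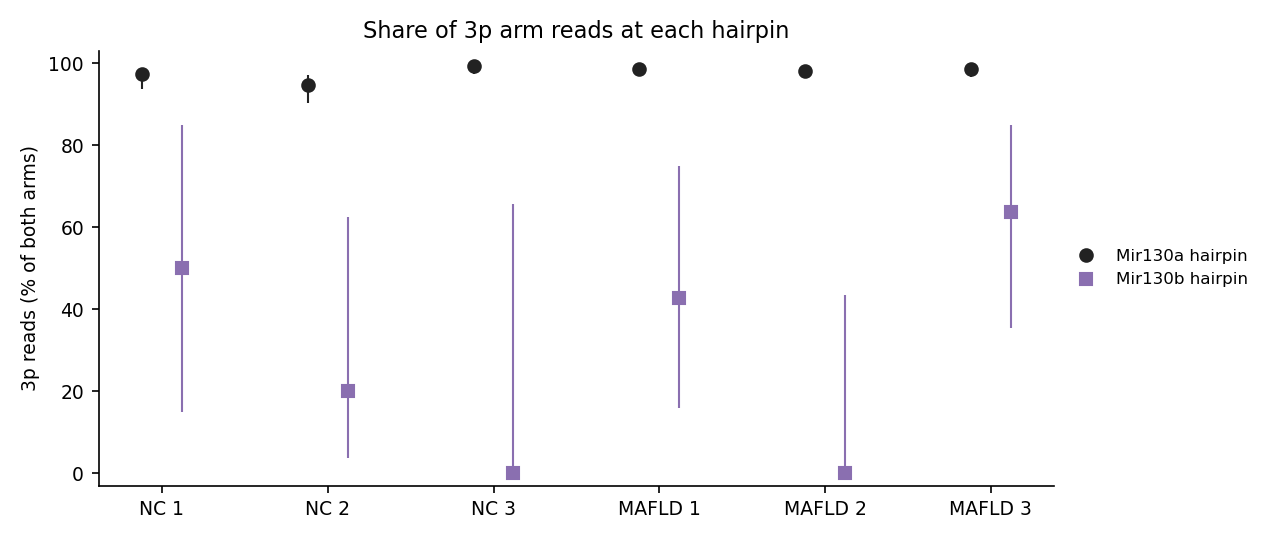
Reads of the 3p strand as a percentage of both strands of the Mir130a hairpin (circles) and the Mir130b hairpin (squares) in each of the 6 libraries, with 95% Wilson intervals. The Mir130a shares lie between 94.5% and 99.3%, and the Mir130b shares between 0% and 63.6%, from at most 11 reads a library.

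The difference in strand use of miR-130b between the diets was within the spread of the libraries. MiR-130b-5p made up 76.7 ± 25.2% (SD, n = 3) of the miR-130b reads in NC and 64.5 ± 32.5% (SD, n = 3) in MAFLD libraries (two-sided exact permutation test, p = 0.8). The difference turned from −12.2 to 1.90 percentage points without MAFLD replicate 3. MiR-130a-5p, which is no member, was at 1.96, 6.37 and 1.50 CPM in NC and at 2.63, 3.20 and 2.61 CPM in MAFLD libraries.

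Among the 3 measured 3p members nearly all reads were of miR-130a-3p. It made up 98.9 ± 0.661% (SD, n = 3) of their reads in NC and 98.7 ± 1.29% (SD, n = 3) in MAFLD libraries (two-sided exact permutation test, p = 0.9). The lowest share was 97.3%, in MAFLD replicate 3, where miR-130b-3p had its 7 reads. The direction of this small difference turned without NC replicate 3 and without MAFLD replicate 3. The summed level of the 3 was 69.8, 112 and 202 CPM in NC and 170, 166 and 190.3 CPM in MAFLD libraries, which is the order of miR-130a-3p.

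Of the other miRNAs with the same seed, miR-721 and miR-6389 were measured, at very few reads. MiR-721 had 1 read, in MAFLD replicate 3. MiR-6389, found by the search of sequences, had 1 read in NC replicate 2 and 2 in MAFLD replicate 3. MiR-130c and miR-6341 were not analysed here. Of the other strands of the miR-301 hairpins, miR-301a-5p had 1 read in NC replicate 1 and 2 in MAFLD replicate 1. MiR-301b-5p had 4 reads, all in NC replicate 3. In each library miR-130a-3p held more reads than these measured miRNAs together.

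A second group carries the seed CAGUGCA, which is the family seed moved by 1 base. Its sites overlap with those of the family where UUGCACUG occurs, as in both Abca1 matches. The 3′ UTRs of Pparg and Tgfbr2 held 0 matches to the seed of miR-148a-3p. The group with CAGUGCA had far more reads than miR-130a-3p.
mmu-miR-148a-3p: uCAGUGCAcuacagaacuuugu
mmu-miR-148b-3p: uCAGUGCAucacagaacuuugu
mmu-miR-152-3p: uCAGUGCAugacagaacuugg

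Of these 3, 0 had an adjusted p under 0.05 in limma, edgeR or DESeq2, beside 0.2%, 0.2% and 6.09% of all miRNAs. At an unadjusted p under 0.05 there were 0 in limma and in edgeR, beside 18.0% and 17.4% of all tested. DESeq2 had 1, miR-148a-3p, which was lower in MAFLD, beside 16.6% of all. The log2 fold changes of the 3 in limma were −0.23, 0.19 and 0.74. MiR-152-3p was at 598, 681 and 1232 CPM in NC and at 1547, 1099.7 and 1383 CPM in MAFLD libraries, with NC replicate 3 again the highest of its group (adjusted p = 0.275, limma).

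MiR-27a-3p and miR-27b-3p, which are known to repress Pparg through another seed, were listed as a comparison. In limma, edgeR or DESeq2 0 of the 2 had an adjusted p under 0.05, beside 0.2%, 0.2% and 6.09% of all miRNAs. In limma miR-27b-3p had an unadjusted p of 0.0431, and 18.0% of all tested were under 0.05. In edgeR and DESeq2 0 of the 2 had an unadjusted p under 0.05, beside 17.4% and 16.6% of all. MiR-27b-3p was at 2679.6, 2749 and 5809 CPM in NC and at 7451, 4590.3 and 5966 CPM in MAFLD libraries. This gave a log2 fold change of 0.75 with a standard error of 0.34 (limma, adjusted p = 0.257), and NC replicate 3 was above MAFLD replicate 2. MiR-27a-3p had a log2 fold change of 0.31 (adjusted p = 0.653, limma). MiR-27b-3p had many more reads than miR-130a-3p in every library.

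The miRNAs nearest to miR-130a-3p in pattern had the smallest root-mean-square difference of log2(CPM + 1) after each miRNA was centred on its mean over the 6 libraries. Among 237 miRNAs averaging 10 CPM or more, these were let-7d-3p at 0.15, miR-192-3p at 0.18 and miR-320-3p at 0.18, against a median of 0.42. Let-7d-3p was at 85.5, 110 and 185 CPM in NC and at 179, 163 and 218 CPM in MAFLD libraries. In all 4 miRNAs NC replicates 1 and 2 were the lowest libraries. The nearest to miR-130b-5p was miR-146b-5p at 0.19 (median 0.60), and the nearest to miR-130b-3p was miR-224-5p at 0.57 (median 0.92). Those member patterns rest on 2 to 5 and 0 to 7 reads a library, so counting error is large in them. The 6 points share their libraries and their totals, so likeness is a description only.

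**Figure D5:**
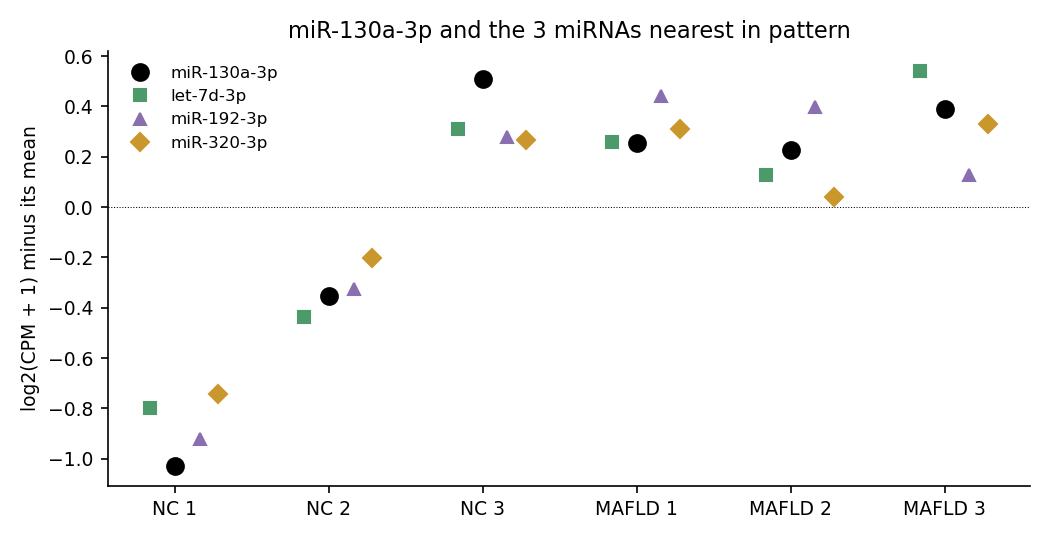
Log2(CPM + 1) of miR-130a-3p and of let-7d-3p, miR-192-3p and miR-320-3p in each library, each centred on its own mean over the 6 libraries. All 4 lie below 0 in NC replicates 1 and 2 and above 0 in NC replicate 3 and the MAFLD libraries.

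Markers of the cell types that a liver sample can hold were set beside miR-130a-3p. In tissue, fewer cells of a type and less RNA per cell cannot be told apart. The hepatocyte list of 4 miRNAs, which holds miR-122-5p, summed to 102722 to 167007 CPM in NC and 147868 to 176512 CPM in MAFLD libraries, so hepatocyte miRNAs were abundant in every library. The endothelial list of 2, miR-126a-3p and miR-126a-5p, summed to 4709.5 to 6587 CPM in NC and to 7659 to 10155 CPM in MAFLD libraries. These sums did not overlap, beside 19.4% of all single miRNAs tested. By itself miR-126a-3p did not overlap, but miR-126a-5p did (NC up to 289 CPM, MAFLD from 280 CPM). On the hepatocyte list miR-122-3p and miR-192-5p did not overlap, and miR-122-5p and miR-194-5p did. The blood and immune list of 7 summed to 743 to 1202 CPM and to 558 to 1149.5 CPM. Most of this was the erythroid miR-451a, at means of 769 CPM in NC and 560 CPM in MAFLD. In limma miR-451a and miR-144-3p had log2 fold changes of −0.48 and −0.67. Those of miR-142a-3p, miR-142a-5p, miR-223-3p, miR-150-5p and miR-155-5p were 0.37, 0.50, 0.80, 0.99 and 1.53, beside a median of 0.43 over all tested. The mesenchymal list of 5 summed to 12612 to 30033 CPM and to 19775 to 26949.6 CPM. Nearly all of that was miR-143-3p, with means of 21193 and 20848 CPM and a log2 fold change of 0.05 (limma). For miR-145a-5p, miR-199a-3p, miR-199a-5p and miR-214-3p the log2 fold changes were 0.28, 0.87, 0.81 and 1.29. The pancreas list of 3 stayed at 6.73 CPM or less. Each listed marker had a read in at least 1 library, and 0 had an adjusted p under 0.05 in limma. At an unadjusted p under 0.05 limma had 1 hepatocyte, 2 endothelial, 1 blood and immune and 2 mesenchymal miRNAs higher in MAFLD, 2 neuronal miRNAs lower and 0 of 2 tested of the pancreas, beside 18.0% of all tested. The counts differed in the fits on recovered reads. There edgeR had 1 endothelial miRNA higher, 2 blood and immune and 3 neuronal miRNAs lower, and 0 hepatocyte and 0 mesenchymal ones. DESeq2 had the same counts except for 1 hepatocyte miRNA, miR-122-5p, which was lower. Of all miRNAs tested, 17.4% had an unadjusted p under 0.05 in edgeR and 16.6% in DESeq2. At an adjusted p under 0.05 edgeR had 0 markers, beside 0.2% of all tested. DESeq2 had 2, the neuronal miR-9-5p and miR-128-3p, beside 6.09% of all with an adjusted p. The part of these cell types in the level of miR-130a-3p was not tested.

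In the 4 libraries with a low neuronal sum, miR-130a-3p was at 201 CPM in the NC library and at 165 to 185 CPM in the MAFLD libraries. The neuronal sum was at 50.1 CPM in NC replicate 3. NC replicates 1 and 2, where that sum was at 459 and 735 CPM, held the 2 lowest levels of miR-130a-3p in CPM as deposited. They were also the 2 lowest with miR-148a-3p taken out of the totals, at 239.8 and 300.7 CPM. With median-ratio scaling NC replicate 2, at 142.1 CPM, was above MAFLD replicate 1 at 130.5 CPM and MAFLD replicate 3 at 141.6 CPM. As deposited, the low side of the comparison lay in the same libraries that stood apart in other miRNAs. Without these libraries the log2 fold change was −0.22, as given above. A link between the neuronal sum and miR-130a-3p was not tested.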

How the data were processed

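Small RNA of 14 to 40 nt in 6 libraries of mouse liver was sequenced after a treatment that removes modifications blocking adapter ligation. The deposited values are CPM of 1546 mature miRNAs, which the authors scaled to the reads on all those listed. The submitters' processing notes name FastQC, cutadapt, Bowtie, edgeR and the build GRCm38. Their roles, versions and the miRNA database are not given in the sources used here. The protocol fields also describe HepG2 cells, but every sample is named as mouse liver.

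Reads were recovered by dividing each value by the smallest of its library, and all values (100%) were within 0.02 of a whole number. The groups entered a two-sided limma test (limma 3.58.1, R 4.3.3, moderated with a trend) of log2(CPM + 1). It covered 501 miRNAs averaging 1 CPM or more, with Benjamini-Hochberg adjustment. Shares within a library were compared with exact permutation tests in scipy 1.17.1, and the planned share over the 3p members was taken over the 3 with values. Alternatives tried were a pseudocount of 0.1 or 5 CPM, a filter at 10 CPM or none, other scalings, limma without trend or moderation, edgeR 4.0.16 and DESeq2 1.42.0 on the recovered reads, the replicate number as a block, and each library left out. Median-ratio scaling of the libraries other than NC replicate 3, and a fit without NC replicates 1 and 2, were chosen after seeing the data. The fits were also run on simulated counts, which had no shift across whole libraries such as the share of miR-148a-3p. That run therefore cannot tell how the fits handle such a shift.

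The members and the lists were chosen with earlier results of these data known. The miRNAs named are the members, their other strands, miRNAs of the same or an overlapping seed, those known to repress Pparg, those nearest in pattern (3 for the member with most reads, 1 for the others tested), and cell type markers. MiR-6389 was added after the search of sequences. Of the listed miRNAs, 1312 matched a RefSeq mature sequence by name. Neither the search of mature sequences nor that of 3′ UTRs covered every chromosome.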

Additional observations from a re-analysis of the deposited data

How the results depend on the processing

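The log2 fold change of miR-130a-3p stayed above 0 in 18 of 19 alternatives and turned to −0.22 without NC replicates 1 and 2. Its adjusted p ran from 0.0387 to 0.999. Leaving out single libraries gave 0.21 to 0.98, and without NC replicate 3 (0.98) the adjusted p was under 0.05, as in no other of the 19. DESeq2 gave 0.10. MiR-130b-3p, which passed the filter only through MAFLD, stayed above 0 in 18 alternatives, from 0.028 to 1.27, and was not tested at 10 CPM. MiR-130b-5p (0.079) was −0.21 with median-ratio scaling, −0.15 without miR-148a-3p, −0.38 in edgeR, −0.43 in DESeq2 and −0.35 when NC replicate 3 was dropped before median-ratio scaling. Leaving out single libraries gave −0.17 to 0.33. The share of miR-130b-5p among both strands (−12.2 percentage points) ran from −29.9 to 1.90, and that of miR-130a-3p among the 3p members (−0.227) from −0.745 to 0.496. Where a direction turned, the cause was not tested.

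Nothing in the labels says that replicate numbers pair samples. Deviations of same-numbered libraries had correlations of 0.012, −0.020 and −0.046, and the replicate block left the differences at 0.58, 0.67, 0.079, −12.2 and −0.227 and changed no call of the members. Over all 501 miRNAs the count with an adjusted p under 0.05 was 1 in limma, 5 with the block, 28 with DESeq2 (of 460 with an adjusted p), and 0 to 114 over the fits that drop a single library. Dropping NC replicates 1 and 2 gave 0 (37 at an unadjusted p under 0.05), and dropping NC replicate 3 with median-ratio scaling gave 36. It was 0 without trend and without moderation, where 74 and 61 had an unadjusted p under 0.05, and 2 in each of the other scalings. Without the filter it was 11 of 1467 miRNAs. Few reads of the measured members other than miR-130a-3p limit what can be seen.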
